A study of Mus musculus with 8 samples.

Results

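The 10 genes described here mark the alveolar type 2 cell, the lung epithelial cell that makes surfactant. They are the surfactant proteins Sftpa1, Sftpb, Sftpc and Sftpd, the lamellar body and processing genes Lamp3, Abca3 and Napsa, the lipid and phosphate genes Lpcat1 and Slc34a2, and the lung chemokine gene Cxcl15. Every peak that the deposited H3K4me3 table assigns to them was taken, which gave 16 of the 35486 listed peaks, in 8 of the 10 genes. No row of the table carries Sftpc or Slc34a2. The table lists 20871 genes in all.

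The libraries came from tumor cells of the lung in mice of the C57BL/6 background. KL is the study's name for a lung tumor model whose alleles include Lkb1fl/fl, and KLG4m/m mice carried Gpx4m/m on top of the alleles of KL. Each group received Ad-Cre into the nose at 8 to 10 weeks of age, tamoxifen (80 mg/kg every other day) from 5 weeks later for 2 weeks, and 3 weeks of rest, so that cells were taken 10 weeks after infection. In the Gpx4m/m allele, Cre switches on DreER-T2, and tamoxifen then lets Dre remove the rox-flanked exons of Gpx4, which encodes an enzyme that reduces lipid peroxides. The alleles of KL, Ad-Cre and tamoxifen were therefore common to the groups, and Ad-Cre is not restricted to a cell type. Gpx4 lies close to Lkb1 on the same chromosome, and the KLG4m/m mice carry a modified copy of that region. The cells were sorted as CD45-CD31-EpCAM+, although a sorting paragraph of the methods gives the tumor gate as CD45.2+, and 1000000 cells per mouse were used. H3K4me3 was profiled by CUT&Tag, which frees the DNA beside an antibody-bound mark, in KL replicates 1 and 2 and KLG4m/m replicates 3 and 4. A figure legend of the paper gives 2 mice per group for these assays, which matches the libraries per group. Its methods speak of 3 mice in total, so the number of mice behind the libraries was not fully settled. The p-values set the difference between groups against the spread of libraries within groups, which was estimated partly from the other peaks or genes. With the number of mice unsettled, that spread cannot be read as one between mice. The H3K27ac samples were not analysed here.

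Surfactant is a film of lipid and protein that lowers surface tension at the air side of the alveolus. Type 2 cells load it into lamellar bodies, secrete it and take part of it back, and they can also give rise to type 1 cells and to lung adenocarcinoma. H3K4me3 is a histone mark of promoters that lies mostly around the start site of genes in use, at high levels over CpG-rich promoters. It is a mark on chromatin, not a measure of RNA.

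The libraries held 3244495 to 3463731 reads in the listed peaks, and TMM factors lay between 0.995 and 1.00. Within a group the pair of libraries differed little beyond sampling noise (chi-square per degree of freedom 1.13 in KL and 1.23 in KLG4m/m), against 2.37 to 2.80 between groups. Values are reads per peak, or CPM, counts per 1000000 reads in the listed peaks after TMM scaling. Differences are log2 fold changes of KLG4m/m over KL with their SE, from edgeR's quasi-likelihood test (two-sided, Benjamini-Hochberg adjustment over all listed peaks, threshold 0.05). A peak or gene past that threshold is called. Because signal is scaled to reads in peaks, a change by 1 factor at every peak would not be seen. With 4 libraries an exact permutation test of a single peak cannot pass the threshold. In these bulk samples, fewer cells of a type and less mark per cell cannot be told apart. The promoter peak of Gpx4 itself held 242 and 236 reads in KL and 304 and 301 in KLG4m/m (log2 fold change 0.40 ± 0.09 SE, edgeR adjusted p = 0.00854). The deleted exons lie outside this peak, so it does not check the deletion.

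H3K4me3 was lower in KLG4m/m at 5 of the 16 member peaks past the threshold and higher at none. Over all listed peaks 5.52% were called lower and 3.1% higher. The 5 peaks lie at Sftpa1, Sftpb, Sftpd, Lamp3 and Cxcl15, all 5 in promoter regions, in which the members have 11 peaks. Of all promoter peaks 7.68% were called lower. In mean CPM the 5 called peaks stand above only 4.0% to 24.4% of promoter peaks. A weak peak may be listed only through its reads in KL, which favours a fall. The median log2 fold change was -0.37 over the member peaks and 0.01 over all peaks. Both KLG4m/m libraries lay below both KL libraries at 11 of the 16 peaks, against 26.6% of all peaks. They lay above both KL libraries at 1, the start site of Napsa, and the share of all peaks with KLG4m/m above was not counted. With the reads of each gene summed, 6 of the 8 genes were called lower and none higher, where 9.63% and 5.38% of all genes were, and the median of the 8 genes was -0.83 against 0.0023 over all genes.

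**Figure D1:**
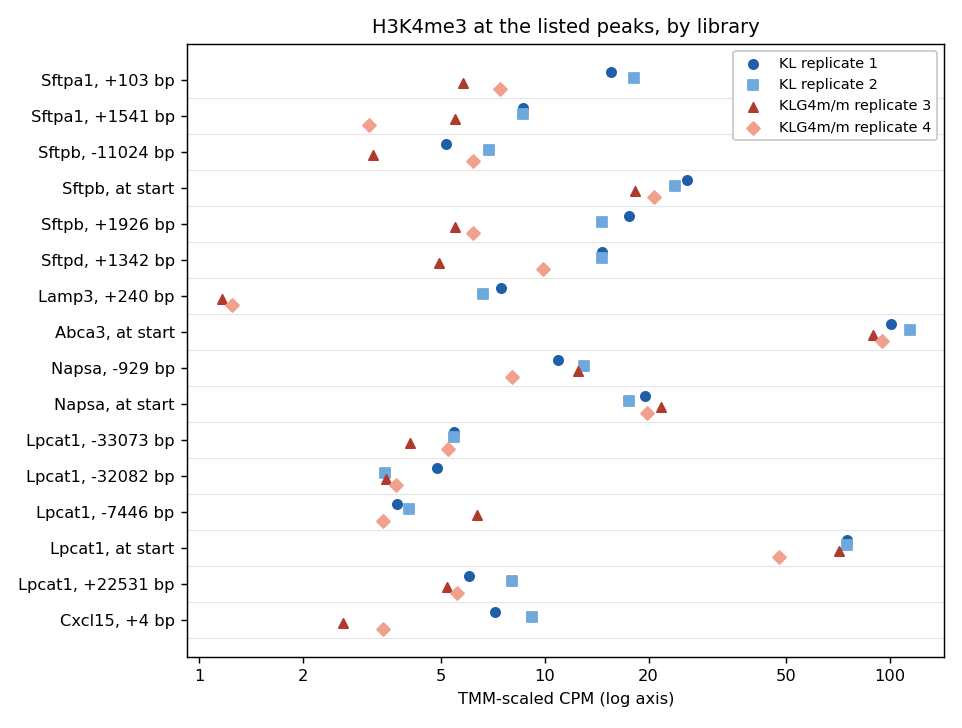
TMM-scaled CPM (log axis) of each of the 16 member peaks in the 4 libraries, named by gene and distance to the start site in bp. Blue points are KL and red points KLG4m/m. At the peaks of Lamp3 and Cxcl15 and at Sftpb +1926 bp the groups stand apart by more than the pairs of libraries within them, while Abca3 and the Lpcat1 start site are by far the strongest peaks.

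All 3 surfactant protein genes with a listed peak were called lower on summed reads. Sftpa1 encodes surfactant protein A, a collectin that binds microbes and lipid. Its first peak, chr14:40853848-40854248 (103 bp downstream of the start), had 54 and 63 reads in KL and 20 and 24 in KLG4m/m. Neither KLG4m/m library reached the lower KL library, and the mean CPM was 16.8 ± 1.85 (SD, n = 2) in KL and 6.62 ± 1.15 in KLG4m/m. The log2 fold change was -1.35 ± 0.24 SE (edgeR adjusted p = 0.000818). Its second peak, chr14:40855286-40855686 and 1541 bp downstream, held 30 and 30 reads in KL and 19 and 10 in KLG4m/m. The groups were again apart, but the log2 fold change of -0.99 ± 0.33 SE did not pass the threshold (edgeR adjusted p = 0.0556). The summed reads of Sftpa1 were 84 and 93 in KL and 39 and 34 in KLG4m/m, a log2 fold change of -1.22 ± 0.20 SE.

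Sftpd encodes surfactant protein D, the other lung collectin. It has 1 listed peak, chr14:40905413-40905813, 1342 bp downstream of its start site. This peak held 51 and 51 reads in KL and 17 and 32 in KLG4m/m. The KLG4m/m libraries differed between themselves (4.93 and 9.91 CPM), and both were below KL (14.7 and 14.7 CPM). The log2 fold change was -0.996 ± 0.27 SE (edgeR adjusted p = 0.0183). The size depends on the KLG4m/m library, being -0.57 without replicate 3 and -1.57 without replicate 4.

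Sftpb encodes surfactant protein B, the hydrophobic protein that the surface film and the lamellar body both need. It has 3 listed peaks. The one over the start site, chr6:72281331-72281731, held 90 and 83 reads in KL and 63 and 67 in KLG4m/m, a log2 fold change of -0.35 ± 0.17 SE (edgeR adjusted p = 0.197). The one 1926 bp downstream of a start site, chr6:72283520-72283920, held 61 and 51 reads in KL and 19 and 20 in KLG4m/m. There the mean CPM was 16.1 ± 2.02 (SD, n = 2) in KL and 5.85 ± 0.48 in KLG4m/m, a log2 fold change of -1.46 ± 0.25 SE (edgeR adjusted p = 0.00051). The start-site peak had a mean of 24.9 CPM in KL and 19.5 in KLG4m/m, so the gap between the peaks was wider in KLG4m/m. Whether the change differed between peaks of 1 gene was not tested. The intergenic peak 11024 bp upstream, chr6:72270170-72270570, held 18 and 24 reads in KL and 11 and 20 in KLG4m/m, and the groups overlapped (log2 fold change -0.38 ± 0.36 SE, edgeR adjusted p = 0.554). The table names different transcripts of Sftpb for these peaks, but their distances are measured from the same start position. Summed, Sftpb held 169 and 158 reads in KL and 93 and 107 in KLG4m/m (log2 fold change -0.65 ± 0.14 SE, edgeR adjusted p = 0.000284 over all genes), and the start-site peak alone was not called.

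Sftpc, which encodes the surfactant protein most particular to type 2 cells, has no listed peak. By the order of genes in RefSeq it lies between Bmp1 and Lgi3, and between the promoter peaks of those genes, which start at chr14:70757809 and chr14:70768555 in the table, no peak is listed. The Bmp1 peak held 217 and 222 reads in KL and 198 and 170 in KLG4m/m (log2 fold change -0.20 ± 0.11 SE, edgeR adjusted p = 0.261). The Lgi3 peak held 69 and 62 reads in KL and 30 and 21 in KLG4m/m (-1.30 ± 0.23 SE, edgeR adjusted p = 0.000629). A table of called peaks gives no value where no peak was called, so nothing is said of the level at Sftpc.

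**Figure D2:**
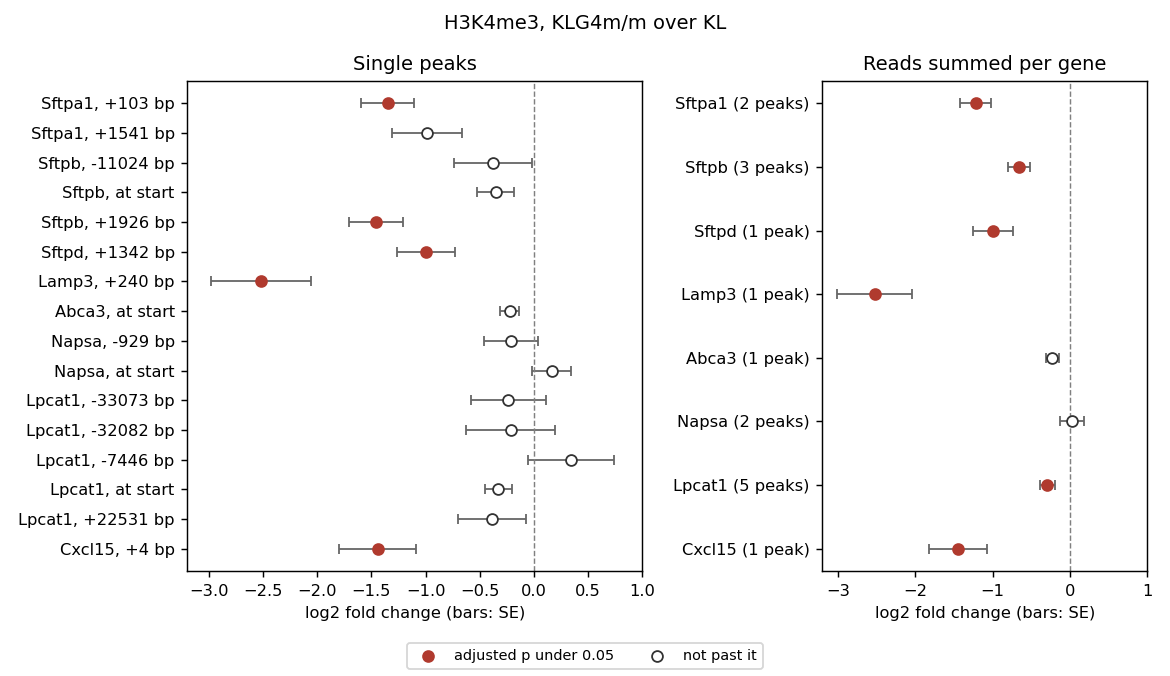
Log2 fold changes of KLG4m/m over KL (x axis) with SE bars for the 16 member peaks (left) and for the summed reads of the 8 genes (right). Filled points passed an adjusted p of 0.05 by edgeR's quasi-likelihood test. Lamp3 has the most negative value, -2.52, and the peaks over the start sites of Sftpb, Abca3, Napsa and Lpcat1 lie between -0.35 and 0.16 and are not called.

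Among the lamellar body and processing genes the members parted. Lamp3 encodes a membrane protein of lysosomes and lamellar bodies. Its only peak, chr16:19524475-19524875 (240 bp downstream of the start), had 26 and 23 reads in KL against 4 and 4 in KLG4m/m. The mean CPM was 7.05 ± 0.60 (SD, n = 2) in KL and 1.20 ± 0.06 in KLG4m/m, or 17% of KL. The log2 fold change of -2.52 ± 0.46 SE (95% interval -3.47 to -1.57, edgeR adjusted p = 0.000851) was the largest fall among the members and rank 15 from the lowest among the 35486 peaks. This is also a weak peak, since only 4.0% of promoter peaks had a lower mean CPM, and 4 reads per library set the lower value. Such a peak may be listed only through its reads in KL, which favours a fall, so the rank is a description. The value was -1.88 by another fit (limma on log2(CPM + 1)), and DESeq2 gave this peak no adjusted p.

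Abca3 encodes the transporter that moves phospholipid into lamellar bodies. Its single peak lies over the start site, chr17:24570701-24571101, and was the strongest of the members, above 94.7% of promoter peaks. It held 350 and 397 reads in KL and 309 and 306 in KLG4m/m. Mean CPM was 107 ± 9.66 (SD, n = 2) and 92.2 ± 3.63, the libraries did not overlap, and the log2 fold change of -0.22 ± 0.09 SE was not called (95% interval -0.41 to -0.04, edgeR adjusted p = 0.121). A fall as large as that of the 5 called peaks lies outside this interval.

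Napsa encodes napsin A, an aspartic protease that trims surfactant protein B. The peak over its start site, chr7:44221774-44222174, held 68 and 61 reads in KL and 75 and 64 in KLG4m/m (log2 fold change 0.16 ± 0.18 SE, edgeR adjusted p = 0.612). After scaling, both KLG4m/m libraries were above both KL libraries by a small margin. The peak 929 bp upstream, chr7:44220540-44220940, held 38 and 45 reads in KL and 43 and 26 in KLG4m/m, with overlap (-0.21 ± 0.25 SE, edgeR adjusted p = 0.644). Summed, Napsa held 106 and 106 reads in KL and 118 and 90 in KLG4m/m, a log2 fold change of 0.03 ± 0.15 SE (edgeR adjusted p = 0.933).

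Lpcat1 encodes the acyltransferase that remakes dipalmitoylphosphatidylcholine, the main lipid of surfactant. The peak over its start site, chr13:73615274-73615674, held 262 and 261 reads in KL and 246 and 154 in KLG4m/m. KLG4m/m replicate 3 (71.3 CPM) was near KL (75.4 and 75.2 CPM), and replicate 4 (47.7 CPM) was far below. The log2 fold change was -0.33 ± 0.12 SE (edgeR adjusted p = 0.0966), and it was -0.66 without replicate 3 and -0.08 without replicate 4. The other 4 peaks of Lpcat1 are weak, with 11 to 28 reads per library. The intergenic peaks 33073 bp upstream (chr13:73581859-73582259), 32082 bp upstream (chr13:73582850-73583250) and 7446 bp upstream (chr13:73607486-73607886) had log2 fold changes of -0.23 ± 0.35, -0.21 ± 0.41 and 0.34 ± 0.40 (SE). The peak in an intron 22531 bp downstream (chr13:73637881-73638281) had -0.39 ± 0.32 SE. None of these 4 was called, and at this depth a change of the size seen at the start site could not be detected in them. The summed reads of Lpcat1 were called lower (332 and 334 against 312 and 212, log2 fold change -0.29 ± 0.10 SE, edgeR adjusted p = 0.0269). That call was lost without any 1 of the libraries, and the value was -0.55 without KLG4m/m replicate 3 and -0.08 without replicate 4.

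Slc34a2 encodes the sodium-phosphate cotransporter of the type 2 cell surface, which recovers phosphate freed from surfactant lipid. No row carries its name. In RefSeq the predicted gene Gm17182 lies head to head with Slc34a2, with start regions that touch, and the table lists a peak over the start site under Gm17182, chr5:53206465-53206865. This peak held 66 and 85 reads in KL and 40 and 55 in KLG4m/m, with KLG4m/m below KL in every pairing. The log2 fold change was -0.61 ± 0.21 SE and did not pass the threshold (edgeR adjusted p = 0.0637). H3K4me3 carries no strand, so the peak cannot be given to 1 of the neighbours.

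Cxcl15 encodes lungkine, a neutrophil-attracting chemokine made by lung epithelium in the mouse. Its only peak, chr5:90942397-90942797, begins 4 bp downstream of the start and had 25 and 32 reads in KL against 9 and 11 in KLG4m/m. The mean CPM was 8.21 ± 1.43 (SD, n = 2) in KL and 3.01 ± 0.56 in KLG4m/m, with no overlap. Only 9.4% of promoter peaks had a lower mean CPM, so the limit given for the weak peak of Lamp3 holds here too. The log2 fold change was -1.44 ± 0.35 SE (edgeR adjusted p = 0.0104), and it was -1.25 and not called (edgeR adjusted p = 0.109) without KL replicate 2.

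**Figure D3:**
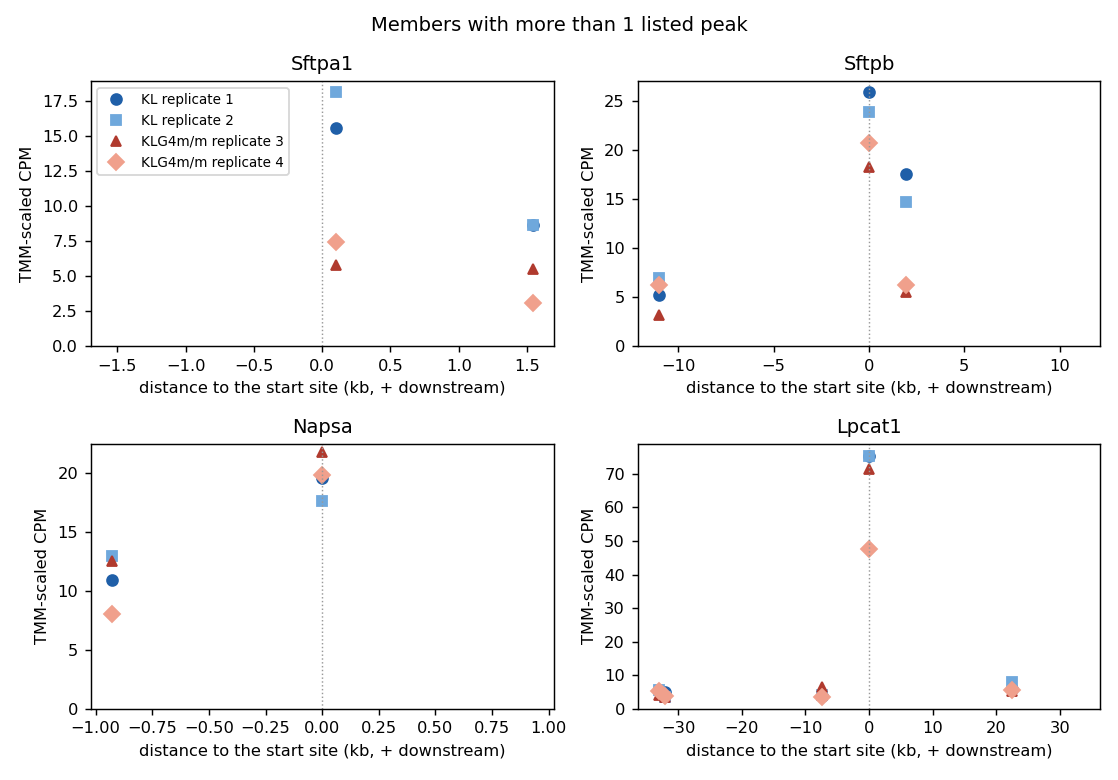
TMM-scaled CPM (y axis) against the distance of each peak to the start site in kb (x axis, downstream to the right) for the 4 members with more than 1 peak, in the 4 libraries. At Sftpb the groups lie close together over the start site and apart at 1.926 kb, and at Lpcat1 KLG4m/m replicate 4 alone stands low over the start site.

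The position of the peaks went with the calls, a split that was noticed after the values were seen. All 5 called peaks were among the 6 promoter peaks that lie downstream of a start site, and none of the 4 peaks over a start site was called. The called peaks of Cxcl15, Sftpa1 and Lamp3 lie only 4, 103 and 240 bp downstream, and those of Sftpd and Sftpb 1342 and 1926 bp. The split is therefore not one of start site against gene body. The median log2 fold change was -1.40 over the 6 downstream peaks and -0.28 over the 4 start-site peaks. Over all genes the order was the other way round, with 6.83% of 6824 downstream promoter peaks and 9.19% of 10362 start-site peaks called lower. Strength went with position too: the start-site peaks of the members had mean CPM of 19.7 to 99.9 and the 6 downstream ones 4.13 to 11.7. Over all genes the median was 51.3 CPM at start-site peaks and 21.3 CPM at downstream ones. The part of peak strength in this split was not tested.

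RefSeq promoter windows (GRCm38.p6) were at hand for 7 of the 10 members, but not for Sftpc, Sftpd and Napsa. The 250 bases before the start are shown for 3 members whose peak beside the start was called (Sftpa1, Lamp3, Cxcl15), for Sftpb, and for 2 whose start-site peak was not (Abca3, Lpcat1), to set their base composition side by side. They are written 5′ to 3′ on the strand of the gene, and capitals mark the letters of a motif searched on both strands. The motifs were CTCAAG for the lung factor NKX2-1, TGTTTAC for FOXA factors, TTGCNNAA for CEBP factors, CATTCC for TEAD factors, TATAAA for the core promoter box of that name and TGANTCA for the dimer called AP-1. The windows are of another build than the peak table, so their positions cannot be laid over the peaks.
Sftpa1: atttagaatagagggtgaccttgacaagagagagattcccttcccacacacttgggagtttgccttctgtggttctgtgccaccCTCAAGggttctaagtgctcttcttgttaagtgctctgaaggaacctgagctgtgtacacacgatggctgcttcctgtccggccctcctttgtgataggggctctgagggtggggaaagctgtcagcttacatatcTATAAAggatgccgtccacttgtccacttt
Lamp3: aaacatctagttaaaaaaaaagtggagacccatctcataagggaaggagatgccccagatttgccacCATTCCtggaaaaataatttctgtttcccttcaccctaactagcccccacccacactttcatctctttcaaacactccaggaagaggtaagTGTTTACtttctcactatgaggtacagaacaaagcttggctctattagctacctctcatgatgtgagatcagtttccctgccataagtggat
Cxcl15: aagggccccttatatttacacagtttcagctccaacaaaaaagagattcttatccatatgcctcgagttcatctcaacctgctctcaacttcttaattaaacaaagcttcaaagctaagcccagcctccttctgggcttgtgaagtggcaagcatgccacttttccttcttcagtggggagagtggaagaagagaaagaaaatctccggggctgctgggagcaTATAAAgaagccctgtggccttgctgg
Sftpb: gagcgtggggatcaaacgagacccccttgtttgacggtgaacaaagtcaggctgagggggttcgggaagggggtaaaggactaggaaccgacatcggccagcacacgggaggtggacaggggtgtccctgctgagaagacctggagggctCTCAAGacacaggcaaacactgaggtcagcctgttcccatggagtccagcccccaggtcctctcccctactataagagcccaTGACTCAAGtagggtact
Abca3: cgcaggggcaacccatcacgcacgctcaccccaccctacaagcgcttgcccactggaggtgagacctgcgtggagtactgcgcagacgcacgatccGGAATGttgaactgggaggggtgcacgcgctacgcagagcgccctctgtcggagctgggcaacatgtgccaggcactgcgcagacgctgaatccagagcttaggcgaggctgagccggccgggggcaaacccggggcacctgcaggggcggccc
Lpcat1: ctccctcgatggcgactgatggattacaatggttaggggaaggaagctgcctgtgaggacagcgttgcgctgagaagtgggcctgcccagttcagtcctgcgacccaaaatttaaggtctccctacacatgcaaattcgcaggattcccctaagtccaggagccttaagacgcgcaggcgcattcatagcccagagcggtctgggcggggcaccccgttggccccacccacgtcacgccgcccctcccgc

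These windows lie at chr14:41131538-41131787 (plus strand, Sftpa1), chr16:19706366-19706615 (minus strand, Lamp3), chr5:90794284-90794533 (plus strand, Cxcl15), chr6:72304360-72304609 (plus strand, Sftpb), chr17:24351773-24352022 (plus strand, Abca3) and chr13:73466981-73467230 (plus strand, Lpcat1) of GRCm38.p6. CpG pairs are scarce in the first group, with 3 in Sftpa1, 0 in Lamp3 and 2 in Cxcl15, and 7 in Sftpb. Abca3 has 21, Lpcat1 16 and Slc34a2 28. Among 9027 genes with 1 RefSeq window and a promoter peak within 1 kb, 4.8% of 1328 peaks at windows with 0 to 4 CpG were called lower and 14.6% of 2871 at windows with 20 or more. The classes with 5 to 9 and 10 to 19 CpG, at 5.1% and 6.3%, lay near the lowest class. So the CpG-poor members that were called belong to a class with a smaller share of falls than the class with 20 or more. The class with 0 to 4 CpG also had more peaks called higher (5.1% against 1.7%) and weaker peaks (median 13.8 against 55.5 CPM). Among peaks with a mean under 30 CPM, 5.3% of 978 and 24.3% of 651 in these classes were called lower. At 30 CPM or more these shares were 3.4% of 350 and 11.7% of 2220. The CpG classes were chosen after the values were seen, and these shares have no test.

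The NKX2-1 letters occur in the Sftpa1 window 166 bases before the start and in the Sftpb window 100 and 15 bases before it, the last one overlapping an AP-1 match that begins 18 bases before the start. Of all 32851 windows 13.3% hold the NKX2-1 letters and 6.7% the AP-1 letters. The Lamp3 window holds a FOXA match 92 bases before the start (3.2% of all windows) and a TEAD match at 183 (12.6%). The Sftpa1 and Cxcl15 windows hold TATAAA 30 and 27 bases before the start, as 12.4% of all windows do somewhere in the 250 bases. The Abca3 window holds a TEAD match at 154, on the other strand, and the Lpcat1 window holds none of the 6 motifs. In Slc34a2 a CEBP match lies 48 bases before the start (9.6% of all windows) and a TEAD match at 92. A match describes letters and is not evidence of binding.

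Peaks of other genes within 50 kb of the member peak nearest a start site were read beside the members; those near Napsa are not reported here. The 3 neighbours of Cxcl15, which are peaks of the chemokine genes Cxcl5, Pf4 and Cxcl3, lay between -0.25 and 0.27 and none was called. The 1 neighbour of Sftpa1 (-0.29), the 4 of Sftpb (-0.73 to -0.17) and the 1 of Abca3 (-0.12) were not called either. No peak of another gene is listed within 50 kb for Sftpd, Lamp3 and Lpcat1.

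The wider surfactant and type 2 programme was mixed. Over all genes 9.63% were called lower and 5.38% higher on summed reads. Of 17 other type 2 markers 16 were listed, 6 were called lower on summed reads and none higher, with a median log2 fold change of -0.19. The 3 largest falls were at Hc, complement component 5 (-1.55 ± 0.48 SE, edgeR adjusted p = 0.0142), at Lgi3 (-1.30 ± 0.24 SE) and at Rbpjl (-0.84 ± 0.31 SE, edgeR adjusted p = 0.0456). Of 7 regulators of type 2 genes, all listed, Foxa2 (178 and 162 reads in KL, 99 and 103 in KLG4m/m, log2 fold change -0.70 ± 0.14 SE) and Etv5 (301 and 335 against 244 and 209, -0.43 ± 0.10 SE) were called lower. The other 5, among them Nkx2-1, the lung lineage factor, were not called. Of 16 other surfactant pathway genes 15 were listed, and 1 was called in each direction, which is near the shares over all genes. Adgrf5, a receptor that restrains surfactant levels, was lower (370 and 378 reads against 246 and 247, -0.55 ± 0.09 SE, edgeR adjusted p = 2.85e-06). Csf2rb, a receptor subunit by which macrophages clear surfactant, was higher (0.32 ± 0.11 SE, edgeR adjusted p = 0.0382). The median of that list was -0.03.

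Markers of other cells were read in the same libraries on summed reads, where 9.63% of all genes were called lower and 5.38% higher. In lists this short 1 call is too few to set against those shares. Of 8 epithelial markers 7 were listed and 2 called lower, Epcam, the sorting marker (182 and 200 reads against 115 and 94, log2 fold change -0.82 ± 0.13 SE), and Cdh1 (-0.38 ± 0.10 SE), and the summed level was 340 to 346 CPM in KL and 299 to 302 in KLG4m/m. Of 10 leukocyte and macrophage markers 9 were listed, 2 called higher (Spi1 and Adgre1) and 1 lower (Chil3), and the sum was 329 to 335 CPM in KL and 389 to 398 in KLG4m/m. Of 8 lymphocyte markers 7 were listed and 4 called higher, among them Ptprcap (0.67 ± 0.13 SE) and Ms4a1 (0.65 ± 0.19 SE), with a sum of 164 to 188 CPM in KL and 228 to 234 in KLG4m/m. No listed marker of these lists is without reads. Of 10 type 1 markers 9 were listed and 2 were called lower, Aqp5 and Emp2. Of 5 club cell markers 3 were listed and Cyp2f2 was called higher. Their sum was 53.26 to 55.65 CPM in KL and 63.85 to 66.84 in KLG4m/m, and Scgb1a1 and Scgb3a1 were not called. Of 6 ciliated markers 4 were listed and Tppp3 was called lower, with a sum of 153.2 to 161.5 CPM in KL and 141.5 to 149.9 in KLG4m/m. Of 7 endothelial markers Tek was called lower, and of 7 fibroblast markers 3 were listed and Pdgfrb was called higher. The part of these markers in the falls at the type 2 genes was not tested.

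**Figure D4:**
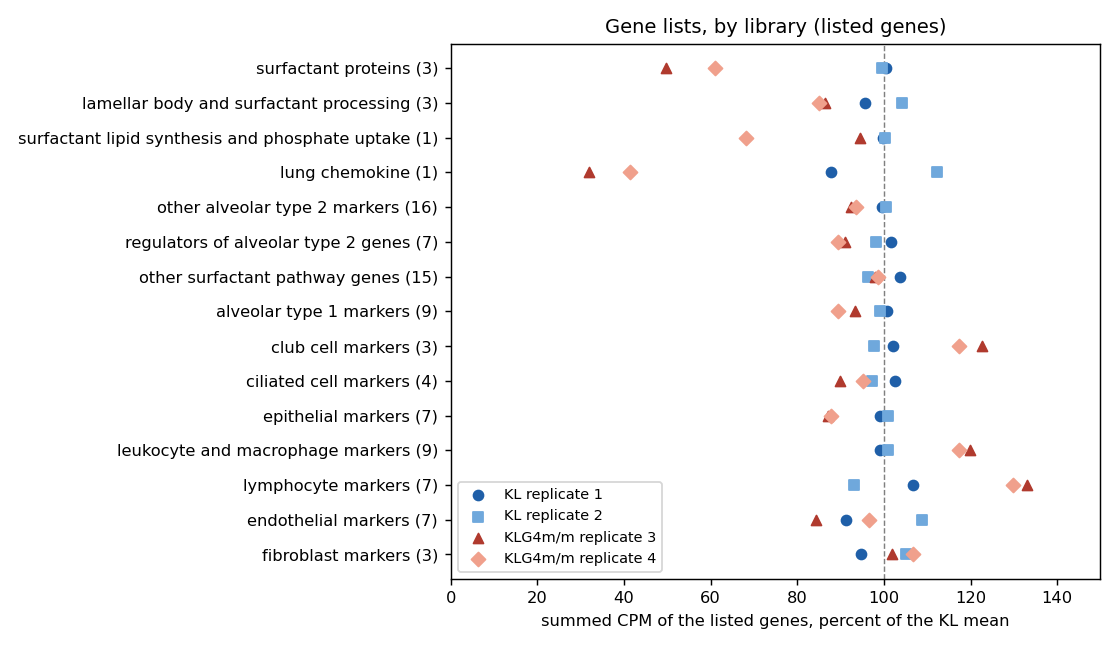
Summed CPM of the listed genes of each list in the 4 libraries, as a percent of the KL mean (x axis), with the number of listed genes in brackets. The surfactant proteins and Cxcl15 stand lowest in KLG4m/m, the other type 2 markers just under KL, and the leukocyte, lymphocyte and club cell markers above it.

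The calls rest on how the spread is estimated. Without KLG4m/m replicate 3 or 4, no member peak and no peak of the whole table was called by edgeR or limma, although 5486 and 5178 of all peaks had an unadjusted edgeR p under 0.05 (5650 and 5129 by limma). Among the 16 member peaks 7 and 5 did by edgeR, and the 5 called peaks were negative in each case. DESeq2 called 1 of the 8 member peaks to which it gave an adjusted p, Sftpb +1926 bp (adjusted p = 0.0437).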

How the data were processed

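H3K4me3 CUT&Tag was compared between 2 KL and 2 KLG4m/m libraries. Per the study's methods, reads were trimmed (Trim Galore 0.6.10), aligned (BWA 0.7.15), stripped of mitochondrial, low-quality and duplicate reads (Picard 2.17.3), and peaks were called (MACS2 2.2.7.1) and assigned to genes (HOMER 4.11.1). How peaks were merged over libraries and how reads were counted is not given in the sources used here. The authors deposited whole-number counts per peak and the same reads as CPM, scaled to 1000000 reads in the listed peaks. Positions are printed as the table gives them and are not those of GRCm38. Columns with the authors' own test of the groups (a log2 change, a mean level, a statistic and its p-values) were left unused.

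Counts were tested here with edgeR 4.0.16 (TMM, glmQLFit and glmQLFTest, no filter, no covariate) in R 4.3.3 over 35486 peaks, and over 20871 genes on summed reads. SE is the size of the unshrunken log2 fold change divided by the square root of F. The printed log2 fold changes are edgeR's slightly shrunken ones. Alternatives were DESeq2 1.42.0, limma 3.58.1 on log2(CPM + 1) or log2(CPM + 0.25), total reads, upper quartile, TMM on promoter peaks, median centring, a minimum mean of 10 CPM, an added 1.5-fold change, the peak nearest the start, and leaving out each library. The members, lists, motifs and tests were chosen with earlier results of these data known. All member peaks are named; of other lists, genes called on summed reads, at most 3 per direction, and neighbours only where a call is involved. Nkx2-1, Cxcl5, Pf4, Cxcl3, Gm17182 and Bmp1 were named after their values were seen. Some items that fall under these rules are not reported here.

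At 3244495 to 3463731 reads per library, weak peaks hold few reads, and their counting error is a large part of their value.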

Additional observations from a re-analysis of the deposited data

How the results depend on the processing

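Of 16 member peaks, 5 were called, and 4 to 6 under total reads, upper quartile, promoter TMM, median centring, both limma settings, the 10 CPM minimum (8 peaks tested), an added 1.5-fold change and, chosen after seeing the data, with the Gm17182 peak counted for Slc34a2. DESeq2 called 1 peak (of 8 with an adjusted p) and 1 gene (of 7, Sftpa1). Summed reads gave 6 genes, and 4 to 7 under the other settings. Leaving out 1 library gave 0 to 5 peaks and 0 to 5 genes, by edgeR and, added after seeing the data, by limma. The 0 came without KLG4m/m replicate 3 or 4, where the KL pair alone gave the spread and the prior degrees of freedom fell from 24.5 to 2.63. Without KL replicate 1 or 2 the prior degrees of freedom of edgeR became infinite. The edgeR calls there rest on a spread shared over peaks, not on that of each peak. In each of these fits the lone library is assumed to vary like the other group. Signs turned only in leave-one-out fits of values that were not called. The range over the 4 libraries left out was -0.440 to 0.0559 at Lpcat1 -32082 bp (turned without KL replicate 1), -0.912 to 0.0310 at Sftpb -11024 bp, -0.192 to 0.712 at Lpcat1 -7446 bp and -0.138 to 0.167 for Napsa summed reads (all turned without KLG4m/m replicate 3), and -0.571 to 0.0642 at Napsa -929 bp (turned without KLG4m/m replicate 4). By limma the turned values were 0.0384, 0.0312, -0.157, -0.137 and 0.0551. Over all peaks, 1099 were called higher and 1960 lower (64.1% lower), 1878 and 1784 with median centring (48.7%), 2122 and 1719 with the upper quartile (44.8%), and 33 and 250 with DESeq2 (88.3%); for genes these were 1122 and 2010 (64.2%), 1802 and 1645 with median centring (47.7%) and 122 and 337 with DESeq2. No paired analysis was possible because the KL libraries carry the numbers 1 and 2 and the KLG4m/m libraries 3 and 4.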
